A study of Mus musculus with 50 samples.

Results

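The integrated stress response, serine synthesis and mitochondrial folate metabolism were followed here through 10 genes in the left ventricle of mice. The genes are Phgdh, Psat1, Psph, Shmt2, Mthfd2, Sardh, Asns, Atf5, Trib3 and Gdf15. They were picked by symbol from the 35717 genes of the deposited expression table, and each symbol matched 1 gene. Sardh was included because its response to angiotensin II (Ang II) differed between the genotypes. Its values in the genotype and Ang II comparisons are therefore given as a description, with no test.

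The 50 hearts came from mice aged 40 weeks on a C57BL/6J background. Tg mice carry a LARP6 transgene, described by the series as overexpressed in cardiomyocytes, and WT mice are their littermates. LARP6 is an RNA-binding protein best known for binding collagen mRNAs. The promoter of the transgene is not given in the sources used here. Ang II, a peptide hormone that constricts vessels and loads the heart, was given by pump at 1000 ng/kg/min, and the comparison mice were given sterile saline. Tissue was taken after 21 days. The groups were 13 Tg Ang II hearts (7 female, 6 male), 12 Tg saline hearts (6 and 6), 14 WT Ang II hearts (7 and 7) and 11 WT saline hearts (5 female, 6 male).

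In the integrated stress response, kinases that sense amino acid shortage, unfolded protein, viral RNA or mitochondrial trouble phosphorylate the translation factor eIF2. General translation slows, while the mRNA of the transcription factor ATF4 is translated more, and ATF4 switches on genes of amino acid synthesis and transport. Serine is made from a glycolytic intermediate by PHGDH, PSAT1 and PSPH, and mitochondrial SHMT2 and MTHFD2 pass its side-chain carbon to folate. In heart and skeletal muscle these genes are known to respond when mitochondrial function is disturbed, and GDF15 is a circulating hormone released by stressed tissue.

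Total counts per library ranged from 53900000 to 91600000. Levels are given as scaled FPKM, the authors' FPKM (fragments adjusted for transcript length and library size) divided by a median-of-ratios factor of 0.776 to 1.14 per library. Each difference is a log2 fold change with its standard error (±, SE), taken from the quasi-likelihood test of edgeR on the deposited counts. P values were adjusted by Benjamini-Hochberg over all genes tested, and an adjusted p below 0.05 counted as a call. The labels do not state that each library is a separate animal, although each library number occurs once, so the p values measure the spread between libraries. Larp6 stood between 444 and 1631 scaled FPKM in the 25 Tg libraries and between 5.61 and 63.7 in 24 of the 25 WT libraries. The library labelled WT Ang II male replicate 5 (number 329) had 1004 and carried the letters of Tg mice in its column name. Library 847, labelled Tg Ang II male replicate 6, had 1119 but carried the letters of WT mice. Both were kept under their labels, and results that changed without them are named.

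Markers of several other cell types moved with the genotype. In these counts, higher, lower, rose and fell mean called at an adjusted p below 0.05 by edgeR. Of the fibroblast markers, 8 of 8 were higher in Tg saline than in WT saline hearts, with summed levels of 187 to 312 and 127 to 179 scaled FPKM. All 7 macrophage markers were higher as well, with sums of 147 to 422 in Tg saline and 94.7 to 123 in WT saline hearts. All 7 endothelial markers were lower, with sums of 129 to 212 against 160 to 294, and 5 of 7 cardiomyocyte markers were lower (12326 to 14318 against 13779 to 17046). Sums of 7 mural markers overlapped, at 176 to 301 in Tg saline and 174 to 230 in WT saline hearts. Of all genes, 20.4% were higher and 20.2% lower in this comparison. Between the genotypes under Ang II, 6 of 8 fibroblast and 5 of 7 macrophage markers were higher in Tg and 7 of 7 endothelial markers were lower. Of all genes, 16.4% were higher and 16.4% lower there. In WT hearts under Ang II, 3 of 8 fibroblast and 1 of 7 macrophage markers rose and 1 of 7 endothelial markers fell. Of all genes, 9.71% rose and 8.87% fell there. The part these cells play in the results on the 10 genes was not tested, and in bulk tissue fewer cells of a type and less RNA per cell cannot be told apart.

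Most of the 10 genes were weakly expressed. Shmt2 and Atf5 passed an FPKM of 1 in all 50 libraries. Sardh passed it in 11 of 13 Tg Ang II, 8 of 12 Tg saline, 13 of 14 WT Ang II and 0 of 11 WT saline libraries. Mthfd2, Asns, Psat1 and Gdf15 also reached it in 0 WT saline libraries. Trib3 reached it in each group, in 6 to 11 libraries. The 11628 genes tested had reached an FPKM of 1 in 5 or more libraries, and 8 of the 10 genes met this. Phgdh and Psph did not, and were tested in a second fit that added them, a choice made after seeing the data. Since Mthfd2, Asns, Psat1 and Gdf15 entered through the groups in which they were high, the counts below account for the genes and are not evidence about the set.

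Between Tg saline and WT saline hearts, 4 of the 9 genes other than Sardh were called, all higher in Tg. They were Gdf15 (5.78-fold), Mthfd2 (1.98-fold), Psat1 (1.57-fold) and Atf5 (1.16-fold). Over all genes tested, 40.6% were called in this comparison and 20.4% were higher in Tg. Phgdh, Psph, Shmt2, Asns and Trib3 did not pass. The call of Atf5 did not hold when any of 12 single libraries was left out. Without scaling beyond library size 6 of the 9 were called, Asns and Shmt2 joining them, but then 4868 of the 5787 called genes of the whole table were higher in Tg, against 2376 of 4720 with scaling.

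Between Tg Ang II and WT Ang II hearts, 5 of the 9 were called, again all higher in Tg, against 32.8% of all genes called and 16.4% higher. Gdf15 (2.32-fold), Mthfd2 (1.55-fold), Phgdh (1.46-fold), Psat1 (1.42-fold) and Asns (1.32-fold) made up this count. Within females alone 2 of the 9 passed and within males alone 1 passed. Without scaling 6 passed, Psph joining them, with 3372 of 4299 called genes of the whole table higher in Tg, against 1905 of 3814 with scaling.

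Under Ang II, WT hearts had 3 of the 9 called, all higher than in WT saline hearts, where 18.6% of all genes were called and 9.71% were higher. These were Gdf15 (3.22-fold), Mthfd2 (1.59-fold) and Atf5 (1.17-fold). The WT saline libraries also serve the saline comparison of the genotypes, so the 2 sets of values are not independent. In females alone 1 of the 9 was called. In males alone edgeR called 0, with 5 at an unadjusted p under 0.05. Without scaling 4 were called, with 1987 of 2464 called genes of the whole table higher under Ang II, against 1129 of 2160 with scaling.

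In Tg hearts, edgeR called 0 of the 9 between Ang II and saline, against 8.93% of all genes. Shmt2, at -0.08 ± 0.04, was the 1 gene at an unadjusted p under 0.05, and DESeq2 and limma called 0 as well. The test of whether the Ang II response differed between the genotypes called 0 of the 9 with edgeR, DESeq2 and limma, with 1 (Gdf15) at an unadjusted p under 0.05, against 0.043% of all genes. The difference in the number of calls between Tg and WT hearts is thus not shown to be a difference in response for these 9 genes.

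**Figure D1:**
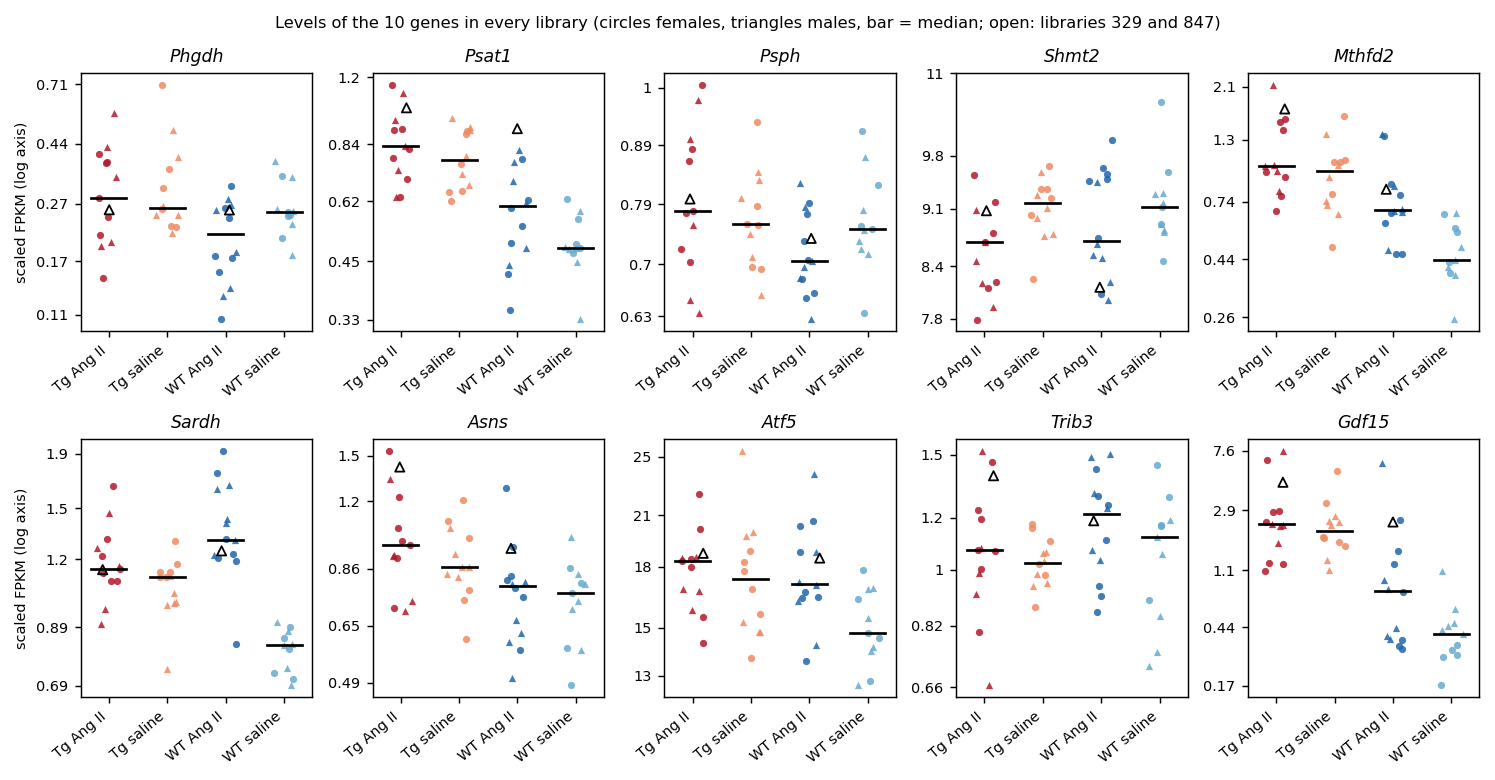
Scaled FPKM (log axis) of the 10 genes in each of the 50 libraries, in 4 groups of genotype and treatment. Circles are females, triangles are males, bars are group medians, and open triangles are libraries 329 and 847. Gdf15 of the 12 Tg saline libraries lies above that of every WT saline library, while Shmt2 and Trib3 overlap in all groups.

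PHGDH catalyses the first and committed step of serine synthesis. Phgdh (ENSMUSG00000053398, chromosome 3, 98313170 to 98339990 on the minus strand, GRCm38) was the least expressed of the 10, with 20 to 162 counts per library. Its lowest, median and highest values were 0.148, 0.284 and 0.562 scaled FPKM in Tg Ang II and 0.106, 0.212 and 0.313 in WT Ang II hearts. They were 0.214, 0.262 and 0.707 in Tg saline and 0.179, 0.253 and 0.382 in WT saline hearts. Under Ang II, 6 of 13 Tg libraries lay above every WT library, and under saline the groups overlapped. Tg stood above WT by 0.54 ± 0.19 on the log2 scale under Ang II (adjusted p = 0.025) and by 0.30 ± 0.21 under saline (adjusted p = 0.26). The call under Ang II was lost without Tg Ang II male replicate 5 (adjusted p = 0.085), with no filter on low values (0.065), in females alone (0.22) and in males alone (0.13). Sampling of reads by itself contributes a coefficient of variation of 13.8% at its mean count, the widest of the 10. A processed pseudogene, Phgdh-ps1, lies on chromosome 7, and its effect on the counts was not tested.

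PSAT1, the aminotransferase of the second step, was measured from 93 to 439 counts per library. Psat1 (ENSMUSG00000024640, chromosome 19, 15904678 to 15947337, minus strand) had lowest, median and highest values of 0.622, 0.771 and 0.964 scaled FPKM in Tg saline and 0.331, 0.483 and 0.627 in WT saline hearts. Of the 12 Tg saline libraries, 11 lay above every WT saline library. Under Ang II the values were 0.633, 0.831 and 1.15 in Tg and 0.347, 0.606 and 0.912 in WT hearts, with 9 of 14 WT libraries below every Tg library. Tg exceeded WT by 0.65 ± 0.12 on the log2 scale under saline (adjusted p = 3.7e-05) and by 0.50 ± 0.11 under Ang II (adjusted p = 0.00044), where males alone did not pass (adjusted p = 0.11). The Ang II response was 0.13 ± 0.12 in Tg hearts (adjusted p = 0.55) and 0.28 ± 0.12 in WT hearts (adjusted p = 0.097), and the WT response passed without WT Ang II female replicate 2 (adjusted p = 0.0496) or male replicate 3 (0.048).

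PSPH, the phosphatase of the last step, showed neither pattern. Psph (ENSMUSG00000029446, chromosome 5, 129765558 to 129787449, minus strand) had group medians of 0.779 scaled FPKM in Tg Ang II, 0.758 in Tg saline, 0.705 in WT Ang II and 0.752 in WT saline hearts, and the groups overlapped. The difference between Tg and WT saline hearts was -0.00 ± 0.07 on the log2 scale and turned positive, at 0.14, without scaling beyond library size. Under Ang II it was 0.15 ± 0.07 (adjusted p = 0.073), and this passed when Tg Ang II male replicate 1 was left out (adjusted p = 0.034), or male replicate 2 (0.037) or female replicate 5 (0.049). It also passed in edgeR without scaling, at 0.24 (adjusted p = 0.0074). With limma it passed on log2(FPKM + 1) (adjusted p = 0.012) and on log2(FPKM + 0.1) (0.016). Of the 3 enzymes of the serine route, edgeR with scaling thus called Psat1 between the genotypes in both treatments, Phgdh in 1 and Psph in 0. The absence of a call for Psph under Ang II depends on the scaling.

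SHMT2 splits serine into glycine and a folate-bound carbon in mitochondria. Shmt2 (ENSMUSG00000025403, chromosome 10, 127517123 to 127522444, minus strand) had group medians of 8.68 scaled FPKM in Tg Ang II, 9.17 in Tg saline, 8.70 in WT Ang II and 9.12 in WT saline hearts. All groups overlapped, over a range of 7.79 to 10.6. The log2 fold changes lay between -0.08 and -0.01 in the 4 comparisons, with SEs of at most 0.04, and 3 of them turned positive without scaling, where the saline difference between the genotypes passed at 0.13 (adjusted p = 0.0028). With 1554 to 2735 counts per library, the range of 2 SE around the saline difference between the genotypes ran from -0.09 to 0.06, whereas that of Psph, with 174 to 411 counts, ran from -0.15 to 0.15.

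MTHFD2 oxidises the carbon that SHMT2 transfers and is known as an enzyme of embryonic and proliferating cells. Mthfd2 (ENSMUSG00000005667, chromosome 6, 83305691 to 83317606, minus strand) had lowest, median and highest values of 0.684, 1.03 and 2.13 scaled FPKM in Tg Ang II hearts. They were 0.493, 0.981 and 1.61 in Tg saline, 0.461, 0.686 and 1.37 in WT Ang II and 0.256, 0.436 and 0.668 in WT saline hearts. The WT saline hearts were lowest, with 10 of 12 Tg saline and 10 of 14 WT Ang II libraries above all of them. Under Ang II, 5 of 13 Tg libraries lay above every WT library. The genotypes differed by 0.99 ± 0.20 on the log2 scale under saline (adjusted p = 9.4e-05) and by 0.64 ± 0.18 under Ang II (adjusted p = 0.0047), Tg being higher in both. The Ang II response was 0.32 ± 0.19 in Tg (adjusted p = 0.30) and 0.67 ± 0.19 in WT hearts (adjusted p = 0.011). Neither sex alone passed for the genotype difference under Ang II (adjusted p = 0.097 in females and 0.053 in males) or for the response in WT hearts (0.31 and 0.051). The difference between the responses of Tg and WT hearts was -0.35 ± 0.27 (adjusted p = 0.67). In the GENCODE M21 annotation the gene extends to 83325908 and overlaps Gm43890 on the same strand over 2799 bases. Whether this affects its counts was not tested.

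SARDH oxidises sarcosine to glycine in mitochondria and hands its electrons to the electron-transferring flavoprotein. Sardh (ENSMUSG00000009614, chromosome 2, 27188393 to 27247414, minus strand) had lowest, median and highest values of 0.828, 1.31 and 1.93 scaled FPKM in WT Ang II and 0.692, 0.824 and 0.911 in WT saline hearts. Of 14 WT Ang II libraries, 13 lay above every WT saline library, and the remaining one was female replicate 3. In Tg Ang II hearts the values were 0.905, 1.15 and 1.65, against 0.742, 1.11 and 1.30 in Tg saline hearts, which overlapped. The log2 fold change under Ang II was 0.16 ± 0.09 in Tg and 0.77 ± 0.09 in WT hearts, and the difference of -0.61 ± 0.13 between them is what led to the choice of this gene. Tg exceeded WT under saline, by 0.40 ± 0.10, and lay below WT under Ang II, at -0.21 ± 0.09. Each of these signs was the same in females and in males, without libraries 329 and 847 and without scaling. Over 45329 bases the gene overlaps Sardhos on the opposite strand, which is not analysed here. The libraries kept strand, but the strand setting of the counting is not given in the sources used here.

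ATF5 is a transcription factor of the mitochondrial unfolded protein response and is itself translated more when eIF2 is phosphorylated. Atf5 (ENSMUSG00000038539, chromosome 7, 44812256 to 44816658, minus strand) was the most abundant of the 10 in scaled FPKM. Its lowest, median and highest values were 14.3, 18.3 and 22.4 in Tg Ang II, 13.7, 17.3 and 25.4 in Tg saline, 13.6, 17.1 and 23.7 in WT Ang II and 12.7, 14.8 and 17.8 in WT saline hearts. The groups overlapped, with 5 of 12 Tg saline and 6 of 14 WT Ang II libraries above every WT saline library. The log2 fold change was 0.22 ± 0.09 between Tg and WT saline hearts (adjusted p = 0.037) and 0.23 ± 0.08 between WT Ang II and WT saline hearts (adjusted p = 0.041). Each call was lost on leaving out any 1 of 12 libraries, with adjusted p values of 0.054 to 0.11 for the first and 0.054 to 0.089 for the second. For the first these were females 1, 2 and 6 and males 1, 2 and 6 of Tg saline, and females 1, 2 and 4 and males 3, 4 and 5 of WT saline. For the second they were the same 6 of WT saline, and females 2, 3 and 7 and males 1, 2 and 5 of WT Ang II. The first was 0.13 with a block for runs of neighbouring library numbers (adjusted p = 0.18), and the second was lost without libraries 329 and 847 (adjusted p = 0.061). Both were lost with no filter on low values (adjusted p = 0.075 and 0.066) and in each sex alone (0.091 to 0.37 and 0.18 to 0.30). Between Tg and WT under Ang II the difference was 0.01 ± 0.08, and it was -0.04 in males alone.

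TRIB3 is a pseudokinase induced by ATF4 and CHOP that dampens ATF4. Trib3 (ENSMUSG00000032715, chromosome 2, 152337422 to 152344032, minus strand) had group medians of 1.07 scaled FPKM in Tg Ang II, 1.02 in Tg saline, 1.22 in WT Ang II and 1.12 in WT saline hearts, and all groups overlapped. Its log2 fold changes between the genotypes were -0.05 ± 0.11 under saline (adjusted p = 0.76) and -0.10 ± 0.10 under Ang II (adjusted p = 0.49), and the first turned to 0.09 without scaling. The response to Ang II was 0.10 ± 0.11 in Tg and 0.16 ± 0.11 in WT hearts (adjusted p = 0.62 and 0.34).

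ASNS makes asparagine from aspartate and glutamine and is a textbook target of ATF4. Asns (ENSMUSG00000029752, chromosome 6, 7675169 to 7693254, minus strand) had lowest, median and highest values of 0.698, 0.967 and 1.54 scaled FPKM in Tg Ang II and 0.501, 0.791 and 1.28 in WT Ang II hearts. They were 0.607, 0.868 and 1.21 in Tg saline and 0.485, 0.765 and 1.01 in WT saline hearts. Of the Tg libraries, 3 of 13 under Ang II and 3 of 12 under saline lay above every WT library of the same treatment. Tg was above WT by 0.40 ± 0.13 on the log2 scale under Ang II (adjusted p = 0.012), which was lost in females alone (adjusted p = 0.28) and with a block for runs of neighbouring library numbers (0.30, adjusted p = 0.10). Under saline the difference was 0.28 ± 0.14 (adjusted p = 0.10), and it passed without scaling (adjusted p = 0.014). The Ang II response was 0.19 ± 0.13 in Tg (adjusted p = 0.40) and 0.08 ± 0.13 in WT hearts (adjusted p = 0.74).

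GDF15 acts on the brainstem receptor GFRAL to reduce appetite and is studied as a circulating marker of cardiac stress. Gdf15 (ENSMUSG00000038508, chromosome 8, 70629393 to 70632456, minus strand) had lowest, median and highest values of 1.11, 2.07 and 5.51 scaled FPKM in Tg saline and 0.173, 0.394 and 1.09 in WT saline hearts. The groups did not overlap. Under Ang II it had 1.08, 2.31 and 7.57 in Tg and 0.311, 0.793 and 6.20 in WT hearts. These overlapped, with 2 of 13 Tg libraries above every WT library and 9 of 14 WT libraries below every Tg library. On the log2 scale Tg exceeded WT by 2.53 ± 0.43 under saline (adjusted p = 5.7e-06) and by 1.22 ± 0.36 under Ang II (adjusted p = 0.0068), where males alone did not pass (adjusted p = 0.17).

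The Ang II response of Gdf15 was 0.37 ± 0.37 in Tg hearts (adjusted p = 0.59) and 1.69 ± 0.41 in WT hearts (adjusted p = 0.0029). In WT hearts the rise was uneven, since 5 of 14 Ang II libraries lay above every saline library. The highest of these, at 6.20, was male replicate 1, followed by female replicate 7 at 2.49 and the library labelled male replicate 5 (number 329) at 2.40. The difference between the responses was -1.32 ± 0.54 (unadjusted p = 0.019, adjusted p = 0.44). The WT response was lost in males alone (adjusted p = 0.10) and, at 0.55, with limma on log2(FPKM + 1) (adjusted p = 0.080). With limma on log2(FPKM + 0.1) it was 1.07 (adjusted p = 0.026), and leaving out 1 library at a time in edgeR gave 1.25 to 1.83. The reason for the lower limma values was not tested.

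**Figure D2:**
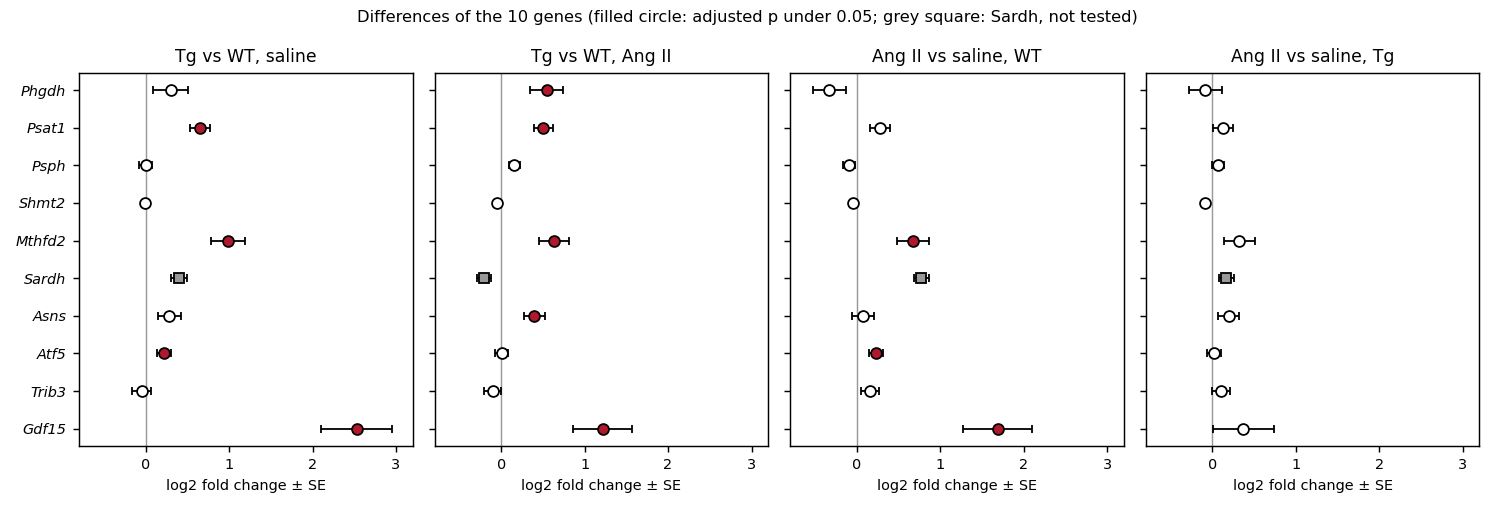
Log2 fold change ± SE of each gene in the 4 comparisons, with the first-named group over the second. Filled points have an adjusted p under 0.05, open points do not, and grey squares mark Sardh, which was not tested. Gdf15 spans 0.37 to 2.53, Mthfd2 0.32 to 0.99 and Psat1 0.13 to 0.65. Shmt2 lies between -0.08 and -0.01, with signs that turn without scaling in 3 of the 4 comparisons.

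Sex was compared over all 50 libraries, females over males with equal weight to each genotype and treatment. By edgeR, 0 of the 10 genes were called, with 0 at an unadjusted p under 0.05, against 4.42% of all genes. DESeq2 called 0, while limma called 1, Shmt2, which was higher in females by 0.05 ± 0.03 in edgeR (adjusted p = 0.32). Gdf15 was at -0.45 ± 0.27 (adjusted p = 0.37), and its WT saline values were 0.173 to 0.327 in the 5 females and 0.394 to 1.09 in the 6 males, which do not overlap. That split was noticed after the values were seen and was not tested. For Sardh the difference between the sexes was 0.06 ± 0.06 (adjusted p = 0.64).

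Within the groups, Gdf15 varied with Mthfd2 and with Atf5 from heart to heart. Each gene's log2 CPM (counts scaled to library size and by the median-of-ratios factors) was centred on its mean in the 8 groups of genotype, treatment and sex. In all, 45 pairs were compared over 50 libraries. The p values come from 100000 permutations of libraries within groups and are adjusted over the 45 pairs. The median Pearson r was 0.13, with a range from -0.32 to 0.74, and 5 pairs passed. Mthfd2 and Gdf15 had r = 0.74 and Spearman rho = 0.73 (p = 1e-05, the smallest these permutations can give), and r = 0.69 without the 2 libraries farthest from the median of Mthfd2. Atf5 and Gdf15 had r = 0.59 and rho = 0.59 (p = 1e-05, adjusted 0.00022), and r = 0.54 without the 2 farthest. The r of this pair was 0.56 in Tg Ang II, 0.53 in Tg saline, 0.84 in WT Ang II and -0.03 in WT saline hearts. Phgdh and Atf5 did not pass (r = 0.13, adjusted p = 0.66).

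The other 3 pairs did not hold without their 2 farthest libraries. Phgdh and Gdf15 had r = 0.52, rho = 0.51 and p = 0.00041, and r = 0.46 without these 2 (adjusted p = 0.06). Phgdh and Mthfd2 had r = 0.50, rho = 0.44 and p = 0.0013, and r = 0.40 without them (adjusted p = 0.11). Mthfd2 and Atf5 had r = 0.45, rho = 0.49 and p = 0.0019, and r = 0.36 without them (adjusted p = 0.12). The r of this last pair was 0.47 in Tg Ang II, 0.40 in Tg saline, 0.71 in WT Ang II and -0.02 in WT saline hearts.

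**Figure D3:**
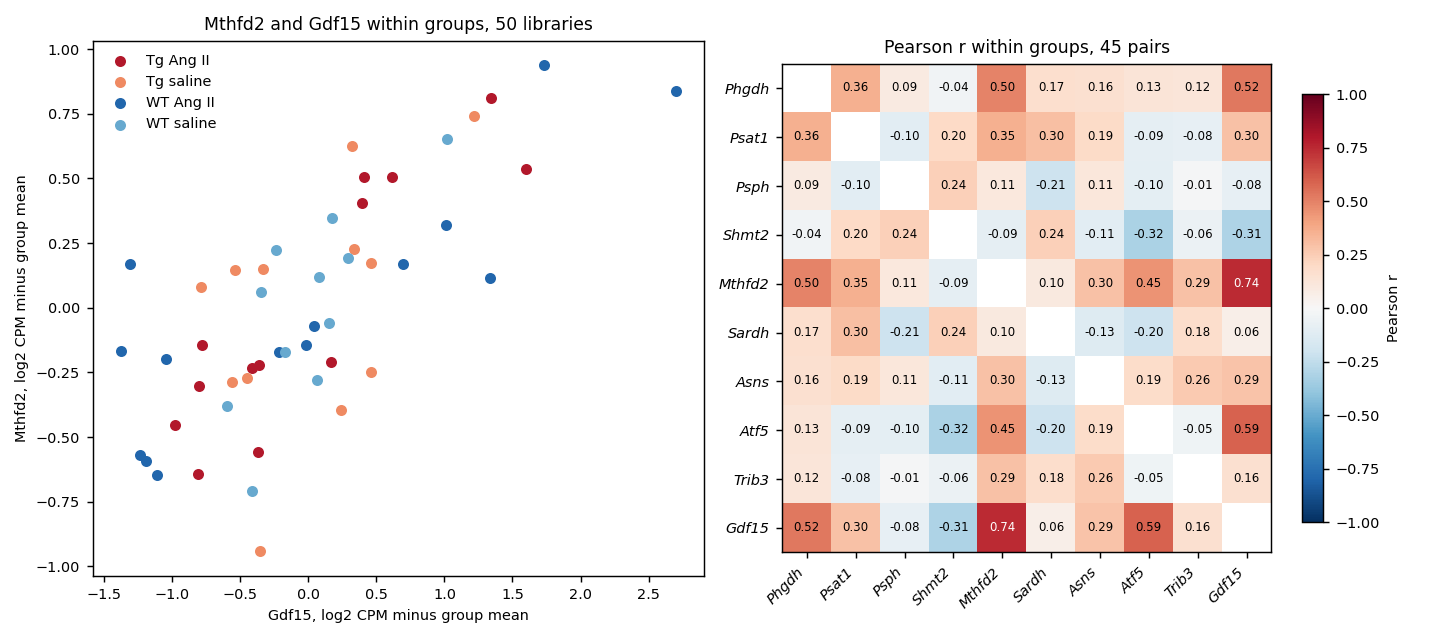
Left, log2 CPM of Mthfd2 against Gdf15 in the 50 libraries, each centred on its group mean and coloured by genotype and treatment (r = 0.74). Right, Pearson r of the 45 pairs of the 10 genes over the same centred values, from -0.32 to 0.74. Mthfd2, Gdf15, Atf5 and Phgdh form the pairs that passed.

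The same centred values were set against Nppa, which encodes atrial natriuretic peptide and rises with load on the ventricle. Nppa itself had log2 fold changes of 3.07 ± 0.28 for Tg over WT under saline, 1.54 ± 0.24 under Ang II, and 0.51 ± 0.25 and 2.05 ± 0.27 for Ang II over saline in Tg and in WT hearts. Of 10 relations, 3 passed adjustment. Gdf15 had r = 0.66 and rho = 0.69 (p = 4e-05, adjusted 0.0004), and r = 0.69 without the 2 libraries farthest on its axis. Mthfd2 had r = 0.53 and rho = 0.54 (p = 0.00029, adjusted 0.0014), and r = 0.48 without 2. Phgdh had r = 0.38 and rho = 0.34 (p = 0.013, adjusted 0.044), and this did not hold without 2 (r = 0.32, adjusted p = 0.15) or without libraries 329 and 847 (r = 0.38, adjusted p = 0.062). Hearts with more Nppa than others of their group thus also had more Gdf15 and Mthfd2.

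Among all 11628 genes, those most like Mthfd2 in these centred values were Mllt11 (r = 0.75), Gdf15 (0.74), Ube2c (0.73), Akr1b8 (0.72) and Rtn4 (0.70), where the median gene had 0.01. Those most like Sardh were Evc2 (r = 0.55), Man2c1 (0.53), Tesmin (0.52), Myom2 (0.52) and Polh (0.50). All of these share the 50 libraries and their depth, and they are given as a description.

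Promoter windows of 300 bases, from 250 before to 50 after each start (RefSeq, GRCm38.p6), were searched on both strands for TGATGNAA, the core of the composite element at which C/EBP and ATF factors meet. It was found in 2 of the 10 genes, Asns and Trib3, against 4.51% of 27025 genes, or in 2 of their 13 windows against 3.97% of 32851. The palindrome TGACGTCA was found in 0 of the 10 and in 2.03% of all genes (1.79% of windows). The 2 matches are shown in capitals, on the strand of the gene itself (the minus strand of its chromosome), 5′ to 3′. In Asns (chr6:7693210-7693269) the match lies from 23 to 16 bases before the RefSeq start. In Trib3 (chr2:152344028-152344057) it lies from 14 to 21 bases after the RefSeq start, on the opposite strand to that printed. These starts differ from the gene positions given above. By those positions, with starts at 7693254 and 152344032, the Asns match lies inside the gene and the Trib3 match before it.

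Asns: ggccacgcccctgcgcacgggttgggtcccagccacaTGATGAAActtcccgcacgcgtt

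Trib3: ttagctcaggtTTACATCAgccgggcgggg

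Mthfd2 and Gdf15, the pair that varied most alike, have no match to either motif. The 100 bases before each start are shown for comparison, from chr6:83317605-83317704 and chr8:70632457-70632556.

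Mthfd2: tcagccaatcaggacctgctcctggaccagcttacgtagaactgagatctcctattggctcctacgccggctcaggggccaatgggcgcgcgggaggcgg

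Gdf15: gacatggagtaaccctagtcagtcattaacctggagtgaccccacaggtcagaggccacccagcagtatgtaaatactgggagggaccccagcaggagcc

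A match is a string of letters, not evidence of binding. Asns and Trib3 hold one, and Asns was called in 1 comparison and Trib3 in 0, while Gdf15, Mthfd2, Psat1 and Atf5, called in 2 or more, hold none in this window. Whether the motif bears on the calls was not tested.

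The wider set of ATF4 target genes was read from a list of 33, of which 25 were tested. Between Tg and WT saline hearts 10 were higher and 1 lower, where 40.6% of all genes were called and 20.4% were higher. Their median log2 fold change was 0.22, against a median of 0.00 over all genes. Between the genotypes under Ang II 8 were higher and 1 lower, with a median of 0.03, where 32.8% of all genes were called. In WT hearts under Ang II 10 rose and 1 fell, with a median of 0.23, where 18.6% of all genes were called, and without libraries 329 and 847 the counts were 7 and 1. In Tg hearts 2 rose and 0 fell, with a median of 0.10, where 8.93% of all genes were called. Without scaling the counts became 16 and 0, 11 and 1, 11 and 1, and 1 and 0. Of the 18 tested that are not among the 10 genes, 6 were higher and 1 lower in Tg under saline (median 0.15), against 40.6% of all genes called. Between the genotypes under Ang II 4 were higher and 1 lower (median 0.03), against 32.8%. Under Ang II in WT hearts 7 rose and 1 fell (median 0.25), against 18.6%, and 5 and 1 without libraries 329 and 847. In Tg hearts 2 rose and 0 fell (median 0.07), against 8.93%.

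Several of these carry amino acids or restrain translation. Slc7a5, the large neutral amino acid transporter, was higher in Tg under saline by 0.93 ± 0.11 (edgeR, adjusted p = 1.4e-08). Nupr1, a stress-induced chromatin protein, averaged 2.44 ± 0.459 scaled FPKM in Tg saline and 1.21 ± 0.236 in WT saline hearts (SD, n = 12 and 11, adjusted p = 1.7e-05), and it rose by 0.97 ± 0.17 under Ang II in WT hearts (adjusted p = 9.1e-05). Eif4ebp1, which binds the cap-binding factor eIF4E, was higher by 0.55 ± 0.10 (adjusted p = 1.1e-05) and rose by 0.39 ± 0.09 under Ang II in WT hearts (adjusted p = 0.0027). Slc7a1, a cationic amino acid transporter, was the gene that was lower, at -0.26 ± 0.10 in Tg saline (adjusted p = 0.026) and -0.32 ± 0.09 in WT Ang II hearts (adjusted p = 0.012). Chac1, which breaks down glutathione, rose under Ang II in WT hearts by 0.91 ± 0.26 (adjusted p = 0.0096). These last, Slc7a1 and Chac1, were named after their values were seen.

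**Figure D4:**
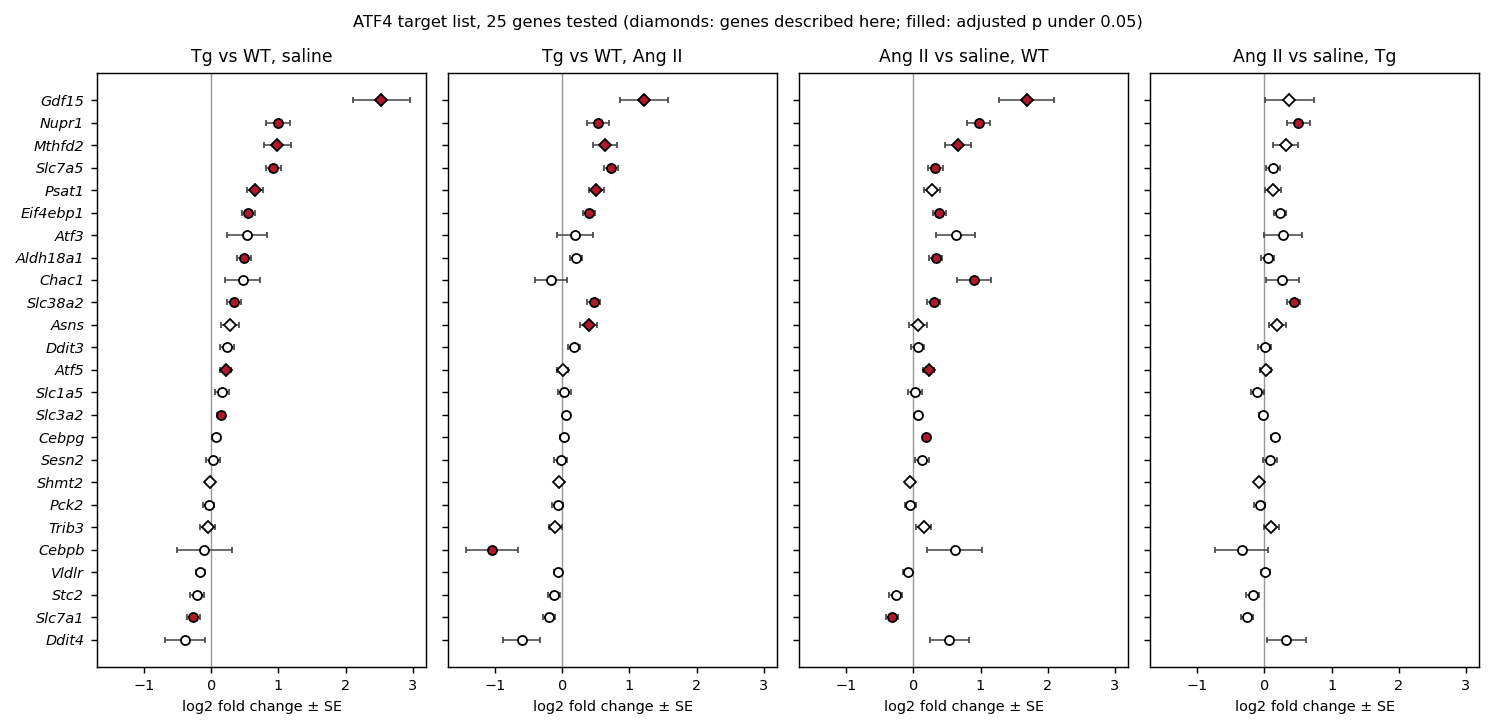
Log2 fold change of the 25 tested genes of the ATF4 target list in the 4 comparisons, with diamonds for those among the 10 genes followed here. Filled symbols have an adjusted p under 0.05. Between Tg and WT saline hearts 10 lie above and 1 below 0 past this threshold, and without scaling 16 and 0.

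In the core of the integrated stress response, 3 of 13 genes tested were higher and 4 lower in Tg saline than in WT saline hearts, and 7 and 1 without scaling. Of all genes, 20.4% were higher and 20.2% lower. Ppp1r15a, the stress-induced subunit that returns eIF2 to its unphosphorylated state, was higher in Tg by 0.49 ± 0.09 under saline (adjusted p = 4.6e-05) and 0.38 ± 0.09 under Ang II. Dele1 and Oma1, which pass a mitochondrial alarm to the eIF2 kinase HRI, were lower in Tg under saline, at -0.24 ± 0.05 and -0.19 ± 0.05 (adjusted p = 0.00049 and 0.0029), though the call of Oma1 was lost without scaling. Atf4 mRNA was at 0.14 ± 0.07 (adjusted p = 0.10) between Tg and WT saline hearts and at 0.21 ± 0.07 in WT Ang II over WT saline hearts (adjusted p = 0.020), a call lost without libraries 329 and 847. Under Ang II the counts in WT hearts were 2 higher and 2 lower, and 0 and 2 without these libraries.

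Of the serine and glycine genes beside Psat1 and Shmt2, 4 were tested, and 1 was higher and 1 lower in Tg under saline, or 3 and 1 without scaling, where 40.6% of all genes were called. Gcat, which makes glycine from a threonine product, was lower, at -0.54 ± 0.10 in Tg under saline (adjusted p = 4.6e-05) and -0.60 ± 0.10 in WT hearts under Ang II (adjusted p = 3.3e-05). Sdsl, a serine dehydratase-like enzyme, was higher in Tg under saline by 0.51 ± 0.10 (adjusted p = 2.9e-05). Shmt1, the cytosolic partner of Shmt2, was at 0.11 ± 0.09 (adjusted p = 0.29).

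In the folate list, 12 of 21 genes were tested, with 3 higher and 1 lower in Tg under saline (7 and 1 without scaling) and 3 higher and 1 lower under Ang II (3 and 0 without scaling). These counts include Mthfd2, and the shares over all genes were 40.6% and 32.8%. Atic, which uses a folate carbon in purine synthesis, was higher in Tg by 0.43 ± 0.05 under saline (adjusted p = 2.2e-10) and 0.35 ± 0.04 under Ang II (adjusted p = 8.5e-09). Ggh, which trims the glutamate tail of folates, was higher by 0.32 ± 0.08 under saline (adjusted p = 0.0014). Aldh1l1, which burns cytosolic formyl-folate to carbon dioxide, was lower at -0.68 ± 0.18 (adjusted p = 0.0016). In WT hearts under Ang II, Mthfd1 was lower at -0.15 ± 0.05 (adjusted p = 0.042), a call lost both without scaling and without libraries 329 and 847, and Fpgs was at -0.19 ± 0.07 (adjusted p = 0.053).

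Beside Sardh, 5 genes of the choline, betaine and sarcosine list were tested, and 4 were lower in Tg under saline and in WT hearts under Ang II, where 20.2% and 8.87% of all genes were lower. Etfa and Etfb, the subunits of the flavoprotein that takes electrons from SARDH, and Etfdh, which passes them to ubiquinone, were lower in Tg under saline, at -0.38 ± 0.05, -0.55 ± 0.07 and -0.43 ± 0.06 (adjusted p = 8.0e-08, 1.4e-08 and 4.4e-07). In WT hearts under Ang II they were at -0.21 ± 0.05, -0.20 ± 0.07 and -0.20 ± 0.06 (adjusted p = 0.0016, 0.027 and 0.015), where the call of Etfb was lost without scaling. Gnmt, which makes sarcosine from glycine, was lower in both comparisons, at -0.94 ± 0.18 and -0.57 ± 0.17 (adjusted p = 3.0e-05 and 0.012). Under saline 4 were also lower without scaling, and the gene that was not called, Aldh7a1, stood at 0.01 ± 0.04 under saline in Tg and at -0.07 ± 0.04 in WT hearts under Ang II (adjusted p = 0.93 and 0.25). The flavoprotein also serves fatty acid oxidation.

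The last lists were glycine cleavage and the methionine cycle, read against the 40.6% of all genes called between Tg and WT saline hearts. Of 3 glycine cleavage genes tested 1 was called. Dld, which is shared with pyruvate dehydrogenase, was lower in Tg under saline at -0.36 ± 0.04 (adjusted p = 1.6e-09), while Amt (-0.13 ± 0.08) and Gcsh (-0.04 ± 0.04) did not pass. Of 7 methionine cycle genes tested, 1 was higher and 3 lower in Tg under saline, and 4 and 1 without scaling. Mtr, the folate-dependent methionine synthase, was at -0.46 ± 0.09 (adjusted p = 4.4e-05) and Mat2a, which makes S-adenosylmethionine, at -0.18 ± 0.06 (adjusted p = 0.019, lost without scaling). Ahcy, which clears S-adenosylhomocysteine, was higher at 0.16 ± 0.06 (adjusted p = 0.022).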

How the data were processed

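Per the labels, poly(A) RNA of the left ventricle was made into paired-end libraries with a dUTP method that keeps strand. The submitters' processing notes name cutadapt 1.9, FastQC, HISAT2 2.0.4 and StringTie 1.3.4d; the counting tool, its strand setting and the genome build are not given in the sources used here. The deposited table holds a whole-number count and an FPKM value per gene and library, as made by the authors. Positions were matched by identifier to GENCODE M21 (GRCm38), where 35599 of 35717 genes were found and 91.6% had identical ends, and 8 of the 10 genes did.

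Groups come from the labels. The plan had been written for FPKM or counts, and counts were tested. Genes reaching an FPKM of 1 in 5 or more libraries (11628, with 98.9% to 99.3% of each library's counts) were fitted in edgeR 4.0.16 (R 4.3.3, default quasi-likelihood fit, median-of-ratios factors) with 1 mean for each of the 8 groups of genotype, treatment and sex, females and males weighted equally. P values are two-sided. Phgdh and Psph were added in a second fit of 11630 genes. On simulated counts for Tg against WT saline (11628 genes, 100 changed at each size), 91% of genes changed 1.5-fold and 99% of those changed 2-fold were recovered, with 3.06% false calls. Equal numbers rose and fell, and the share changed was far below the 40.6% called in the data. The simulation therefore does not test the scaling, or the error rate at such a share. The median-of-ratios scaling matters between the genotypes: without it the median of all genes shifts by 0.14 under saline and by at most 0.08 in the other comparisons. Alternatives were TMM factors, no scaling, other filters, DESeq2 1.42.0, limma 3.58.1 on log2(FPKM + 1) and log2(FPKM + 0.1), each sex alone, leaving out each library, a block for runs of neighbouring library numbers and, chosen after seeing the data, leaving out libraries 329 and 847.

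The 10 genes, the gene lists and the tests were chosen with earlier results of these data known. Named beside the 10 were, from each pathway list, up to 3 other genes with the smallest p between Tg and WT saline hearts and up to 2 between WT Ang II and WT saline hearts, Larp6 as a check, and the 5 genes most like Mthfd2 and Sardh. Exceptions are named as such.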

Additional observations from a re-analysis of the deposited data

Results flagged for a closer look

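Each of the 10 genes was looked at in 8 groups of genotype, treatment and sex, 80 sets of values in all, for a library far from the rest of its group. In 8 of them the gap to the nearest library, divided by the range of the group, passed Dixon's limit. For normally distributed values chance alone gives about 1 in 20. The limit was applied here to values that were not logged, and the 80 sets share libraries. The count of 8 can therefore not be read against that rate.

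Library 159, WT Ang II male replicate 1, stood far above the other 6 males of its group for Gdf15 (6.20 scaled FPKM, next 2.40) and for Mthfd2 (1.37, next 0.857). Library 162, Tg saline female replicate 2, did so for Phgdh (0.707, next 0.359) and Sardh (1.30, next 1.17). For Gdf15, Tg Ang II female replicate 3 stood at 6.51 (next 2.85) and WT saline male replicate 3 at 1.09 (next 0.593). For Sardh, Tg Ang II female replicate 2 stood at 1.65 (next 1.31), and Tg saline male replicate 2 lay lowest at 0.742 (next 0.981). Left out one at a time, none of these libraries changed the call of Gdf15, Mthfd2 or Psat1 in the comparisons of genotype and treatment. The call of Atf5 between Tg and WT saline hearts was lost without library 162, Tg saline male replicate 2 or WT saline male replicate 3. Its call in WT hearts under Ang II was lost without library 159 or WT saline male replicate 3. Phgdh in Tg hearts under Ang II, which was not called, turned positive without library 162.

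The Ang II response of Sardh in Tg hearts minus that in WT hearts was -0.61 on the log2 scale. The gene was chosen for this difference, so the value carries no test.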

How the results depend on the processing

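Of 452 log2 fold changes recomputed under the alternatives, 391 kept their direction and side of the threshold, 21 lost the call, 7 gained one, 31 changed sign and 2, both of Sardh on log2(FPKM + 1), moved by more than the spread between libraries. The 31 that changed sign were at most 0.14 in size after the change, and at most 0.37 (Gdf15 in Tg hearts under Ang II) as reported. Psph between Tg and WT saline hearts became 0.0019 with TMM factors, 0.14 without scaling, 0.046 and 0.093 with limma on log2(FPKM + 1) and log2(FPKM + 0.1), and 0.0046 in males. Shmt2 in the same comparison became 0.13 without scaling, 0.088 and 0.096 with limma, 0.0053 in males and 0.00763 with a block for runs of library numbers. Trib3 became 0.090 without scaling, 0.034 and 0.070 with limma, 0.087 in males and 0.023 with that block. Between Tg and WT under Ang II, Shmt2 became 0.042 without scaling, 0.035 and 0.038 with limma and 0.012 in males, Atf5 -0.036 in males and Trib3 0.0071 in females. In WT hearts under Ang II, Shmt2 became 0.013 without scaling and 0.017 and 0.019 with limma, Asns -0.13 in males and Trib3 -0.10 in females. In Tg hearts under Ang II, Phgdh became 0.082 in males and 0.099 with the block, Atf5 -0.063 in males, Trib3 -0.028 with the block and Gdf15 -0.029 in females. Limma was run on FPKM without scaling factors. The median of all genes itself moved between Tg and WT saline hearts, to 0.14 without scaling and to 0.081 and 0.11 with limma; for the other settings the cause was not tested.

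The number of the 9 genes called fell to 2 (Tg against WT, saline) and 1 (Tg against WT, Ang II) under a filter at an FPKM of 2, where 3 of them were tested. Under Ang II, Tg against WT gave 2 in females and 1 in males, and WT Ang II against saline gave 1 in females and 0 in males (5 at an unadjusted p under 0.05), each with fewer libraries. Between the sexes, 1 gene was called without scaling and with either limma fit. Of the correlated pairs, 2 held without the 2 farthest libraries and 12 passed on log2(FPKM + 1).

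Leaving out 1 library at a time kept each such count within 1.5 times. It turned the sign of Psph (-0.032 to 0.032) and Shmt2 (-0.028 to 0.013) between Tg and WT saline hearts, of Atf5 between Tg and WT under Ang II (-0.021 to 0.047), and of Phgdh (-0.20 to 0.086) and Atf5 (-0.0067 to 0.079) in Tg hearts under Ang II. No paired analysis was possible because no library number occurs in more than 1 group. Depth limits Phgdh most, at 20 to 162 counts per library.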

Other observations

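Of the cytosolic tRNA synthetases, many of which are ATF4 targets, 20 were tested. Between Tg and WT saline hearts 3 were higher and 5 lower, close to the 40.6% of all genes called there, but 12 and 1 without scaling beyond library size, so their direction depends on it. Kars, which charges lysine tRNA, was lower at -0.21 ± 0.03 (edgeR, adjusted p = 1.7e-06) and stayed so without scaling. Wars was at -0.21 ± 0.05, a call lost without scaling, and Dars at -0.12 ± 0.03, a sign that turned. Under Ang II in WT hearts 3 were higher and 0 lower (9 and 0 without scaling), where 18.6% of all genes were called, with Gars at 0.14 ± 0.04 (adjusted p = 0.011).

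Of 11 chaperones and proteases of mitochondria tested, 3 were called in Tg saline hearts, all lower, where 20.2% of all genes were lower. Hspa9, Dnaja3 and Clpp stood at -0.19 ± 0.03, -0.22 ± 0.05 and -0.13 ± 0.05 (edgeR, adjusted p = 2.1e-05, 0.00032 and 0.023). Without scaling none of these 3 calls held, Clpp changed sign, and 3 other genes of the list were higher. The aminotransferase Gpt, which moves nitrogen between alanine and glutamate, was lower in Tg, at -1.04 ± 0.11 under saline (adjusted p = 5.6e-10) and -0.89 ± 0.10 under Ang II, and in WT hearts under Ang II at -0.44 ± 0.11 (adjusted p = 0.0026). Gpt2 and Got1 were lower in Tg under saline as well, at -0.53 ± 0.11 and -0.39 ± 0.07. Of the list of asparagine, glutamine and aspartate genes, 2 of 10 tested were higher and 3 lower in Tg under saline, and 5 and 3 without scaling, where 40.6% of all genes were called. Trib1 and Trib2, the relatives of Trib3, stood at -0.01 ± 0.12 and -0.19 ± 0.08 (adjusted p = 0.94 and 0.061).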
